A study of Mus musculus with 23 samples.

Results

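Neutrophils of the mouse brain are described here. They were selected on their transcripts from droplet RNA sequencing of single cells sorted by the fluorescence of a dosed antibody. A barcode was taken as a neutrophil when it passed the depth filter (500 or more genes, 800 or more UMIs, mitochondrial UMIs of 10% or less) and met 3 conditions. It had at least 10 UMIs of S100a8 and S100a9 together, at least 1 UMI of Retnlg, Il1r2, Slpi, Hdc, Ngp or Cxcr2, and more UMIs of S100a8 and S100a9 than of Cldn5, Flt1, Aqp4, Gja1, Cx3cr1 and P2ry12 together. The rule found 315 neutrophils among 249715 kept barcodes (0.126%), in 16 of 23 libraries. It used no fluorescence bin and no treatment, so the number of neutrophils per library is independent of it.

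The study asked which brain cells take up antibodies that are built to cross the capillary wall. All mice received 45 mg/kg of an AF647-labelled antibody into a vein and were perfused 24 h later at an age of 12 weeks (3.3 months in the labels). ATV-TfR, an antibody transport vehicle that binds the transferrin receptor (gene Tfrc), was given to TfR mu/hu knock-in mice. ATV-CD98hc, which binds the heavy chain of CD98 (gene Slc3a2), was given to CD98hc mu/hu knock-in mice, and C57BL/6J mice received control IgG. Each treatment was thus given to its own genotype, and the effects of both cannot be told apart. Olfactory bulb, cerebellum, pons and medulla were removed, transcription and translation were blocked during dissociation, and live cells were sorted into negative, low, medium and high bins of AF647 signal. The gates were set on the ATV-TfR positive cells and used for all treatments. Each treatment had 2 pools that joined the cells of 1 female and 1 male, and every bin of a pool gave 1 library, except that control IgG had 1 negative library (pool 2). Replicates are pools, so the spread in the tests is that between pools or, where cells could be assigned by sex, between animals that shared a pool's libraries.

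Neutrophils are short-lived white blood cells made in bone marrow. They build their granules in sequence while they mature: azurophil granules in promyelocytes, specific granules (Ltf, Camp, Lcn2, Ngp) in myelocytes and metamyelocytes, and gelatinase granules (Mmp9) last. The transcripts of the granule proteins fall as the cell leaves the marrow, and those of receptors for cytokines and chemokines, such as Csf3r and Cxcr2, rise. In the healthy brain few neutrophils lie outside the vessel lumen, and more are found in the meninges and in the marrow of the skull. They carry Fc receptors, through which they bind the constant part of antibodies.

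Library totals ran from 1861238 to 90307818 UMIs, and a neutrophil had a median of 2092 UMIs (857 to 19646) and 1022 genes, against a median of 3761 UMIs over all kept barcodes. S100a8 and S100a9, the subunits of calprotectin, made up 12.96% of the UMIs of the neutrophils, with a median of 155 UMIs per cell (10 to 3742). Near the threshold, 7 neutrophils had 10 to 12 of these UMIs and 5 barcodes that met the other conditions had 7 to 9. Of 335 kept barcodes with at least 10, 2 were left out for want of the second set of genes and 18 for their UMIs of other cell types. No 2 neutrophils shared a barcode, and 20 of them (6.35%) had a barcode that was also kept in another library, against 6.14% of all kept barcodes.

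The cell type was checked against genes the rule did not use. Of the 20 genes with the highest ratio of CPM in neutrophils over all other kept barcodes, 4 were rule genes (Ngp, S100a8, S100a9, Retnlg). The other 16 included Ly6g, the surface antigen by which mouse neutrophils are recognised, which had 453 UMIs in neutrophils and 9 in all other kept barcodes. They also included the lactotransferrin gene Ltf (3844 against 211 UMIs), the cathelicidin gene Camp (18539 against 784), the collagenase gene Mmp8 (741 against 66), the gelatinase gene Mmp9 (1013 against 157), and Trem1, Wfdc21, Ceacam10 and Stfa2l1. These ratios describe cells chosen by correlated genes and were not tested. In the sums per treatment, all 5 erythroid markers were at 0 in ATV-TfR and control IgG and 4 of 5 in ATV-CD98hc, and 3 or 4 of the 4 eosinophil markers were at 0. Markers of other cell types were not absent. Over the pools of all treatments, B cell markers summed to 12.4 to 410 CPM and monocyte markers to 233.5 to 774. Oligodendrocyte markers summed to 244 to 3195 CPM. Transcripts of brain cells were present: 52 neutrophils had 5 or more UMIs of 6 endothelial markers, 49 had 5 or more of 5 astrocyte markers, and 237 had fewer than 5 of each.

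Almost all of the sequenced neutrophils came from the antibody-positive bins. In ATV-TfR the negative libraries of pools 1 and 2 held 1 and 0 neutrophils, the low libraries 22 and 17, the medium libraries 5 and 3, and the high libraries 12 and 1. In ATV-CD98hc the same libraries held 0 and 0, 57 and 11, 33 and 14, and 0 and 4. In control IgG the negative library held 0, the low libraries 68 and 53, the medium libraries 7 and 7, and the high libraries 0 and 0. Over all treatments 1 of 37965 barcodes of the negative bins was a neutrophil, against 314 of 211750 in the positive bins (0.148%, exact 95% interval 0.132% to 0.166%). The low bins held 72.4% of all neutrophils, the medium bins 21.9% and the high bins 5.40%. Of the 228 low-bin neutrophils 121 were from control IgG. Every library is listed with 60000 sorted cells, whatever the size of its bin before the sort. These counts and percents are thus of sequenced cells and do not give the distribution of neutrophils over fluorescence.

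As a share of kept barcodes, the low libraries held 0.136% and 0.0942% neutrophils for ATV-TfR, 0.316% and 0.0555% for ATV-CD98hc, and 3.03% and 1.37% in control IgG. The medium libraries held 0.0312% and 0.0194%, 0.186% and 0.0681%, and 1.02% and 0.874%. Thus the low library lay above the medium library in 5 of 6 pools, and in ATV-CD98hc pool 2 below it. The high libraries held 0.0614% and 0.00568% in ATV-TfR, and 0 and 0.0299% in ATV-CD98hc. The ATV-CD98hc high bin held 4 neutrophils, all of pool 2. Each had 5 or more endothelial or astrocyte UMIs, and Scrublet called 3 of the 4 doublets. With 0 of 526 and 0 of 725 barcodes, the high libraries of control IgG allow shares of up to 0.570% and 0.414% (3 counts; these limits and the exact intervals cover counting error only).

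**Figure D1:**
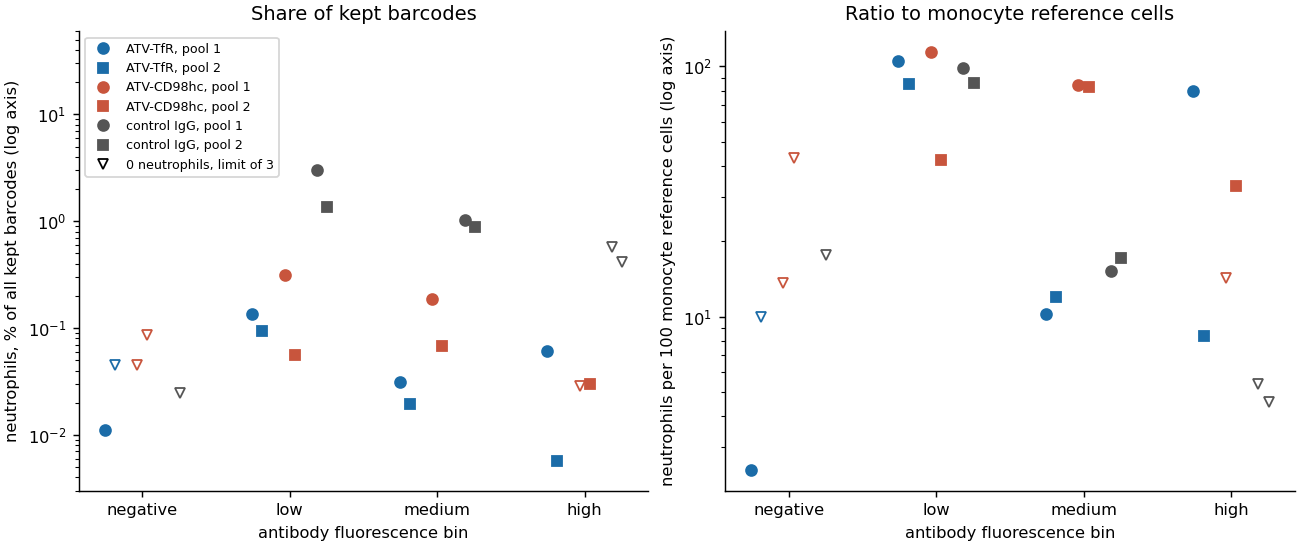
Neutrophils per library by fluorescence bin (x axis), as a percent of kept barcodes (left, log axis) and per 100 monocyte reference cells (right, log axis). Each point is 1 library, circles are pool 1 and squares pool 2, and open triangles mark libraries with 0 neutrophils at the value that 3 would give. The control IgG low libraries are highest on the left at 3.03% and 1.37%, while on the right the low libraries of the 3 treatments overlap.

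The logit share (0.5 cells added to each side) was on average 2.66 higher in positive than in negative libraries of a treatment (two-sided exact permutation test of bin labels within treatments, p = 0.0027, adjusted p = 0.011 over 4 such tests, all added after the data were seen). Labels were permuted over both pools of a treatment, and none of the 4 tests was run with the pool as a block. The difference was 1.76 in cells called male (adjusted p = 0.054), 1.42 in cells called female (0.053) and 1.53 without control IgG pool 2 (0.056), so that it missed the threshold of 0.05 in each. By treatment the difference was 1.33 with ATV-TfR, 1.73 with ATV-CD98hc and 4.91 with control IgG. A library with 0 neutrophils enters this scale at a value set by its number of barcodes alone, which was 526 and 725 in the high libraries and 12167 in the negative library of control IgG, so these sizes follow library size in part and are not compared. On the arcsine square root of the share, an alternative added after the data were seen, where an empty library counts as 0 whatever its size, positive libraries lay 0.0418 above negative ones and missed the threshold (exact permutation p = 0.066, adjusted 0.066). Within the positive bins the low libraries lay 1.59 above the medium and high libraries (exact permutation p = 0.015, adjusted 0.018), with 1.52, 1.27 and 1.99 by treatment, and it was also called on the arcsine scale (0.0445, exact permutation p = 0.022, adjusted 0.030). That call was lost in cells called male (0.951, adjusted exact permutation p = 0.065), among barcodes with a UMI of Ptprc, the common leukocyte antigen (1.045, 0.173), and without control IgG pool 1 (1.50, 0.064) or pool 2 (1.69, 0.056). The planned test of a steady trend over the 4 bins found none: slopes of the logit share per bin were 0.078, 0.044 and 0.256 in ATV-TfR, ATV-CD98hc and control IgG (exact permutation p = 0.83, 0.94 and 0.78, adjusted 0.94 in each). On the arcsine scale the control IgG slope turned negative (−0.0206, exact permutation p = 0.47), so no direction is given. With 8 libraries that test can reach 0.00079 and with 7 it can reach 0.0016.

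Monocytes of the same libraries, defined by markers, gave another base for the counts. The negative bins held 117 monocyte reference cells, the low bins 248, the medium bins 217 and the high bins 182, while neutrophils numbered 1, 228, 69 and 17. In the low bins, pools 1 and 2 of ATV-CD98hc had 57 neutrophils beside 50 monocyte cells and 11 beside 26, which differ. Those of ATV-TfR had 22 beside 21 and 17 beside 20, and those of control IgG 68 beside 69 and 53 beside 62. Per 100 monocyte cells, with both pools summed, the low bins held 95.1 neutrophils for ATV-TfR, 89.5 for ATV-CD98hc and 92.4 for control IgG. The medium bins held 10.8, 83.9 and 16.1 and the high bins 48.1, 12.1 and 0, and no order of these bins held in all pools. ATV-TfR pool 1 had 5 neutrophils beside 49 monocyte cells in medium and 12 beside 15 in high, while pool 2 had 3 beside 25 and 1 beside 12, the opposite order. Of the 182 high-bin monocyte cells 122 were from control IgG. The log ratio of neutrophils to monocyte cells was 2.08 higher in positive than in negative libraries and 1.90 higher in low than in brighter libraries (exact permutation p = 0.018 and 0.012, adjusted 0.018 for both). On the arcsine square root of the share of neutrophils among both cell types, with no cells added, both contrasts were also called (0.468 and 0.376, adjusted exact permutation p = 0.014 for each). The first lost its call in female cells (0.899, adjusted p = 0.128) and both lost it in male cells (1.355 and 1.12, adjusted p = 0.065). The second also lost it without control IgG pool 1 (1.88, 0.064) or pool 2 (1.92, 0.056).

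Between treatments, neutrophils were a larger share of the sorted positive cells in control IgG than in either ATV. Counted over the positive bins, 1.52% of kept barcodes were neutrophils in control IgG (135 of 8856), 0.119% in ATV-CD98hc (119 of 100052) and 0.0583% in ATV-TfR (60 of 102842). Per animal, the mean log2 percent over the 3 bins, with 0.5 cells added to each, was 0.106, −1.499, −1.54 and −1.67 in the 4 control IgG mice, −3.72, −3.96, −4.64 and −4.96 in the ATV-CD98hc mice, and −3.69, −5.03, −5.58 and −6.21 in the ATV-TfR mice. All 4 control animals lay above all 8 others. The differences were −3.98 for ATV-TfR and −3.17 for ATV-CD98hc (exact permutation, 4 animals against 4, p = 0.029 each, the smallest that 4 against 4 allows, adjusted 0.043). The test counts the 2 animals of a pool as separate, though they shared their dissociation and libraries. Its p therefore does not measure the spread between the 2 pools of a treatment. Taken as the log2 of the mean share over the bins, with 0.001% in place of the added cells, the differences were −3.71 and −2.73 (exact permutation p = 0.029 each, adjusted 0.043). With 1 pool left out the differences ran from −4.41 to −3.54 and from −3.65 to −2.68. Comparing 2 animals with 4 cannot go below an exact permutation p of 0.067 (adjusted 0.1), and where the pool left out was of the third treatment the p stayed at 0.029 and missed the threshold through the adjustment (0.086). These losses say nothing of dependence on a pool. ATV-TfR and ATV-CD98hc overlapped (−0.808, exact permutation p = 0.23). Only 120 of the 315 neutrophils had a sex call, against 69.7% of kept barcodes.

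The denominator moved with the treatment. The positive libraries of control IgG held 526 to 3869 kept barcodes and those of the ATVs 10431 to 20570. Among barcodes with a UMI of Ptprc, neutrophils made up 6.62% in control IgG, 1.69% in ATV-CD98hc and 3.66% in ATV-TfR. On that base the difference per animal was 0.528 for ATV-TfR, turned in direction (exact permutation p = 0.51), and −0.334 for ATV-CD98hc (p = 0.77), and neither was called. For ATV-TfR the measures thus disagreed, since its percent of summed counts stayed below that of control IgG. The difference per animal instead averages log2 shares of sexed cells over the bins, with 0.5 cells added to each.

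The neutrophils fell into cells with many and cells with few specific granule transcripts. Camp encodes the antimicrobial peptide CRAMP, Ltf the iron-binding lactotransferrin and Ngp a cystatin-like granule protein. A cell was called granule-rich with 10 or more UMIs of Camp and Ltf together, a threshold set after the values were seen. It split the cells into 88 granule-rich (27.9%) and 227 granule-poor, of which 197 had none and 30 had 1 to 9. Granule-rich cells were deeper, with a median of 4052 against 1766 UMIs, and had a median of 978 against 82 UMIs of S100a8 and S100a9, which are rule genes. As a description, with no test since both sets were chosen by the same cells' transcripts, granule-rich cells had more Lcn2 (lipocalin 2, which binds bacterial siderophores; 14350 against 1026 CPM), Chil3 (a chitinase-like protein; 4226 against 190) and Cybb (the catalytic subunit of the NADPH oxidase; 1568 against 81.9). Granule-poor cells had more of the cytokine Il1b (10050 against 88.7 CPM), the G-CSF receptor Csf3r (1856 against 212), the chemokine Ccl6 (1058 against 34.6) and the marrow-retention receptor Cxcr4 (263 against 60.6). Transcripts of Mki67, Top2a, Pclaf or Birc5, which dividing cells make, were found in 16 of 88 granule-rich and 3 of 227 granule-poor cells.

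Camp, Ngp and Ltf lie in that order along mouse chromosome 9. Their promoters are shown because these transcripts moved together in what follows. Each is the 250 bases before the annotated start, read 5′ to 3′ on the gene's strand from RefSeq (GRCm38.p6), and capitals mark matches on either strand to TTNNGNAA, a form of the site bound by C/EBP factors such as Cebpe, with overlapping matches joined. Camp lies at chr9:109849457-109849706 on the minus strand, Ngp at chr9:110419558-110419807 on the plus strand and Ltf at chr9:111019042-111019291 on the plus strand.
Camp: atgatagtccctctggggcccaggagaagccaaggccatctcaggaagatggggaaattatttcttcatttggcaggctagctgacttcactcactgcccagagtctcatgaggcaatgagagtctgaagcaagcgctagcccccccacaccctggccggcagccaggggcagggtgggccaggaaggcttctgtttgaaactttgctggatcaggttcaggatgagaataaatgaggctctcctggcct
Ngp: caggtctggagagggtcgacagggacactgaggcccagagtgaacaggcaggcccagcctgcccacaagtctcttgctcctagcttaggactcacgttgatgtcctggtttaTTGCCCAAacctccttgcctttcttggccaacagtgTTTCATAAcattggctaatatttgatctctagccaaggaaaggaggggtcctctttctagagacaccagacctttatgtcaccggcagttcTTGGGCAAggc
Ltf: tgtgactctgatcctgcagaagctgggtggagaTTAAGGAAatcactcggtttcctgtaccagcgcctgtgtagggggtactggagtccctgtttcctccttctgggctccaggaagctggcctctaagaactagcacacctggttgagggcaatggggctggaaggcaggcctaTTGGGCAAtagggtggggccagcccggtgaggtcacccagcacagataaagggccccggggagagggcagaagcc
The Ngp window held 3 matches and the Ltf window 2, and the letters were not found in the Camp window. Of 32851 RefSeq promoter windows of the same length, 36.85% held a match, so a match describes the sequence and not a bound site.

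In ATV-TfR the fluorescence bins separated granule-rich from granule-poor neutrophils. Of the low-bin cells, 0 of 22 in pool 1 and 0 of 17 in pool 2 were granule-rich, and all 39 had 0 UMIs of Camp and of Ltf (exact 95% interval of the share up to 9.03%). In the medium bin 3 of 5 and 2 of 3 were granule-rich, and in the high bin 9 of 12 and 1 of 1, together 15 of 21 (71.4%, interval 47.8% to 88.7%). The low and the brighter cells of both pools did not overlap in this share. In ATV-CD98hc 16 of 57 and 5 of 11 low-bin cells were granule-rich, 3 of 33 and 3 of 14 medium-bin cells, and 0 of 4 high-bin cells. All 4 of these high-bin cells had 5 or more endothelial or astrocyte UMIs. In control IgG 21 of 68 and 23 of 53 low-bin cells were granule-rich, and 1 of 7 in the medium bin of each pool. Over all bins the shares of pools 1 and 2 were 30% and 14.3% in ATV-TfR, 21.1% and 27.6% in ATV-CD98hc and 29.3% and 40% in control IgG, so that ATV-TfR overlapped both other treatments.

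**Figure D2:**
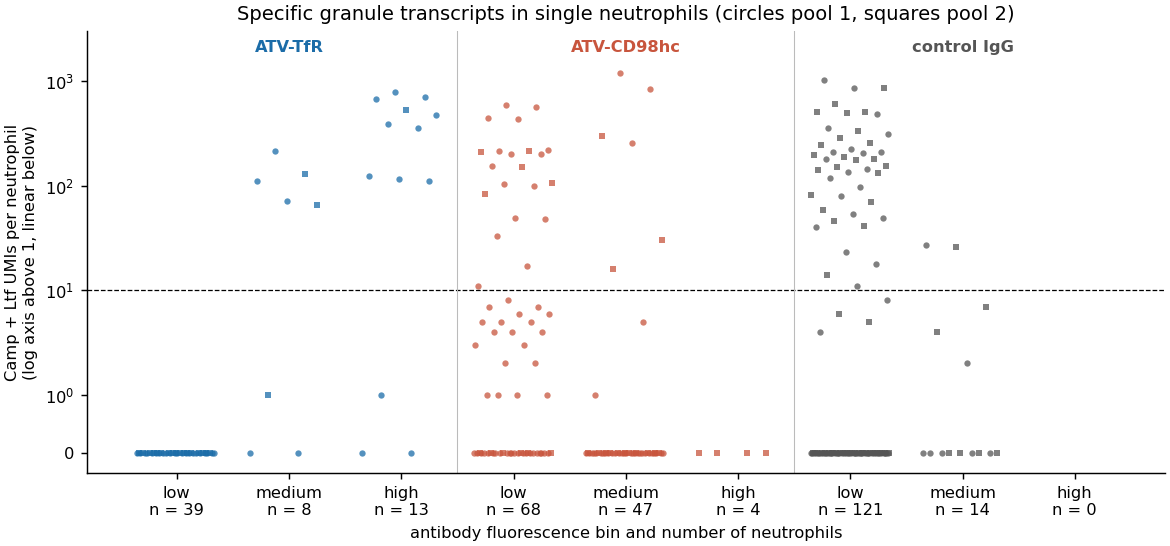
Summed UMIs of Camp and Ltf in each neutrophil (y axis, log above 1 and linear below) by treatment and fluorescence bin (x axis, with the number of cells), circles for pool 1 and squares for pool 2. The dashed line marks 10 UMIs. All 39 ATV-TfR low cells sit at 0, while 15 of 21 medium and high cells lie above the line; in control IgG the cells above the line are mostly in the low bin.

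Depth and RNA of other cells moved with these bins. The median depth was 2105 UMIs in the low cells of ATV-TfR and 4531 in the brighter ones. After every cell was thinned to 800 UMIs, 0 of 39 and 15 of 21 had 3 or more UMIs of Camp and Ltf. Among cells with fewer than 5 endothelial and fewer than 5 astrocyte UMIs, 0 of 25 and 13 of 15 were granule-rich. UMIs of these genes were also found in barcodes that are not neutrophils, and their part in the result was not tested. S100a8 or S100a9 was found in 0.149% and 0.305% of the other kept barcodes of the ATV-TfR low libraries, 1.12% and 0.330% in medium and 1.98% and 0.488% in high, and in none in negative. Camp or Ltf was found in 0.210% to 0.578% of other barcodes in the ATV-TfR libraries.

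The same contrast was tested across all genes on UMIs summed per pool, medium and high bins against low, in a comparison added after the data were seen (edgeR quasi-likelihood, Benjamini-Hochberg over 1830 genes; sums of at least 3 neutrophils). The brighter ATV-TfR sums held 17 and 4 neutrophils and the low sums 22 and 17. The brighter ATV-TfR neutrophils had higher levels of 150 genes (8.2%) and lower levels of 178 (9.73%). Apart from the rule gene Ngp, 6 of 6 specific granule genes were among the higher, with a median log2 change of 6.63 (6.55 with genes absent from one group at their bound) against 0.05 over all genes tested.

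Camp was at 0 CPM in both low sums and at 30270 and 28770 CPM in the brighter sums of ATV-TfR, at least 1197-fold higher against 3 counts over the low group (edgeR adjusted p = 5.4e-06). Ltf was at 0 in both low sums and at 6982 and 9467 CPM in the brighter ones, at least 293-fold higher (adjusted p = 5.4e-06). Lcn2 was at 640 and 454 CPM in low and at 10260 and 16940 in the brighter sums (log2 change 4.91 ± 0.53 SE, edgeR adjusted p = 7.2e-05). Camp, Ltf and Lcn2 passed in all 15 alternatives run, leaving out each pool included. Where an ATV-TfR pool was left out, 1 low sum stood against 1 brighter sum. The spread in that fit came from the sums of the other treatments. Chil3 had 1 UMI in the low sums and 2825 and 2577 CPM in the brighter ones (adjusted p = 0.0068). Cd177, a surface glycoprotein of specific granules, rose by 3.75 on the log2 scale and the collagenase gene Mmp8 by 2.38 (adjusted p = 0.0063 and 0.022). Without ATV-TfR pool 1 the brighter side rests on 4 cells. There 35 genes were called in all, and of the 39 genes looked at by name 31 lost their call, Chil3, Cd177 and Mmp8 included.

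Other genes rose in the same cells. Cebpe, the factor that drives specific granule genes, was at 0 CPM in both low sums and at 423 and 368 in the brighter sums, at least 16.5-fold higher (edgeR adjusted p = 0.00076). Itgb2l, an integrin beta chain, was at 0 in low and at 207 and 473 CPM, at least 9.80-fold higher (adjusted p = 0.0016). Of the 6 NADPH oxidase genes 2 rose, where 8.2% of all genes did. Cybb went from 17.3 and 32.4 CPM to 1026 and 1525 (log2 5.81 ± 0.65 SE, edgeR adjusted p = 9.3e-05), and Cyba, its membrane partner, from 709 and 859 to 1835 and 1683 CPM (log2 1.45, adjusted p = 0.018). Of the gelatinase granule and secretory vesicle genes 1 of 6 tested rose, the membrane protease gene Mmp25 (log2 3.21, adjusted p = 0.035). The interferon-inducible gene Ifitm3 (1.62) and the leukotriene B4 receptor gene Ltb4r1 (2.11) also rose. Of 6 cell division genes only Mki67 was called (edgeR adjusted p = 0.034), and its sums overlap (0 and 0 CPM in low, 279 and 0 in the brighter sums). Without ATV-TfR pool 1, Itgb2l and Cybb kept their calls and Cebpe, Cyba, Mmp25, Ifitm3, Ltb4r1 and Mki67 lost them. Over all alternatives run, Ltb4r1 lost its call in 12 of 14, Mmp25 in 8 of 14, Ifitm3 in 8 of 15, Cyba in 5 of 15 and Mki67 in 3 of 14.

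Some genes of mature and activated neutrophils fell in the brighter ATV-TfR cells, where 9.73% of all genes did. Apart from the rule gene Cxcr2, 2 of 11 genes of the mature blood neutrophil list passed the test, Csf3r and Ccl6, and all 11 had negative log2 changes (median −1.85). Csf3r was at 1764 and 1912 CPM in low and at 234 and 736 in the brighter sums (log2 −1.88 ± 0.50 SE, edgeR adjusted p = 0.021). Ccl6 fell from 1435 and 891 to 54.0 and 421 CPM (adjusted p = 0.018). Il1b was at 12900 and 8683 CPM in low and 1476 and 3051 in the brighter sums, which did not pass (adjusted p = 0.070). Of 8 inflammatory genes tested 2 fell, the inflammasome sensor Nlrp3 (log2 −3.40, adjusted p = 0.0076) and the prostaglandin synthase gene Ptgs2 (−2.92, adjusted p = 0.046). Of 5 immediate early genes 3 fell, Fos (−1.76), Egr1 (−2.71) and Atf3 (−2.29). Of 8 adhesion genes 2 fell, Cd44 (−1.58) and the integrin gene Itga4 (−1.91), and Itgb2l rose. Csf3r, Ccl6, Nlrp3, Ptgs2, Fos, Egr1, Atf3, Cd44 and Itga4 all lost their calls without ATV-TfR pool 1. Over all alternatives run Itga4 lost its call in 11 of 15 and Cd44 in 4 of 15.

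Genes of brain cells were in the same lists of changed genes. Apart from genes of the rule, 4 of 4 endothelial markers were called higher in the brighter ATV-TfR neutrophils and 3 of 3 astrocyte markers lower. These endothelial markers summed to 17.3 and 0 CPM in the low sums of pools 1 and 2 and to 2528 and 52.6 in the brighter ones, so that in pool 2 the brighter sum rests on 1 UMI. The astrocyte markers summed to 3787 and 4374 CPM in low and to 63.0 and 52.6 in the brighter sums, lower in both pools. The genes with the largest fall were of this kind, led by Slc4a4, Slc6a11, Aldoc and Slc1a3, and Egfl7, Id1, Pltp and Ly6c1 were among those with the largest rise, a call that each of these 4 lost without ATV-TfR pool 1 (edgeR adjusted p 0.451 to 0.565). Of 5 monocyte markers 1 was tested, Ly6c2, a surface antigen of inflammatory monocytes that neutrophils also carry. It was at 17.3 and 0 CPM in the low sums and at 234 and 789 in the brighter sums of ATV-TfR (log2 5.68, edgeR adjusted p = 0.0068), and the 5 markers summed to 64.8 to 155.6 and to 278.9 to 788.9 CPM. Over all treatments a UMI of Ly6c2 was found in 69 of 88 granule-rich and 24 of 227 granule-poor neutrophils. The part of RNA from other cells in these changes was not tested. Without the neutrophils with 5 or more endothelial or astrocyte UMIs, 67 genes were called higher and 53 lower (120 in all), and Camp, Ltf, Lcn2 and Cybb remained called.

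**Figure D3:**
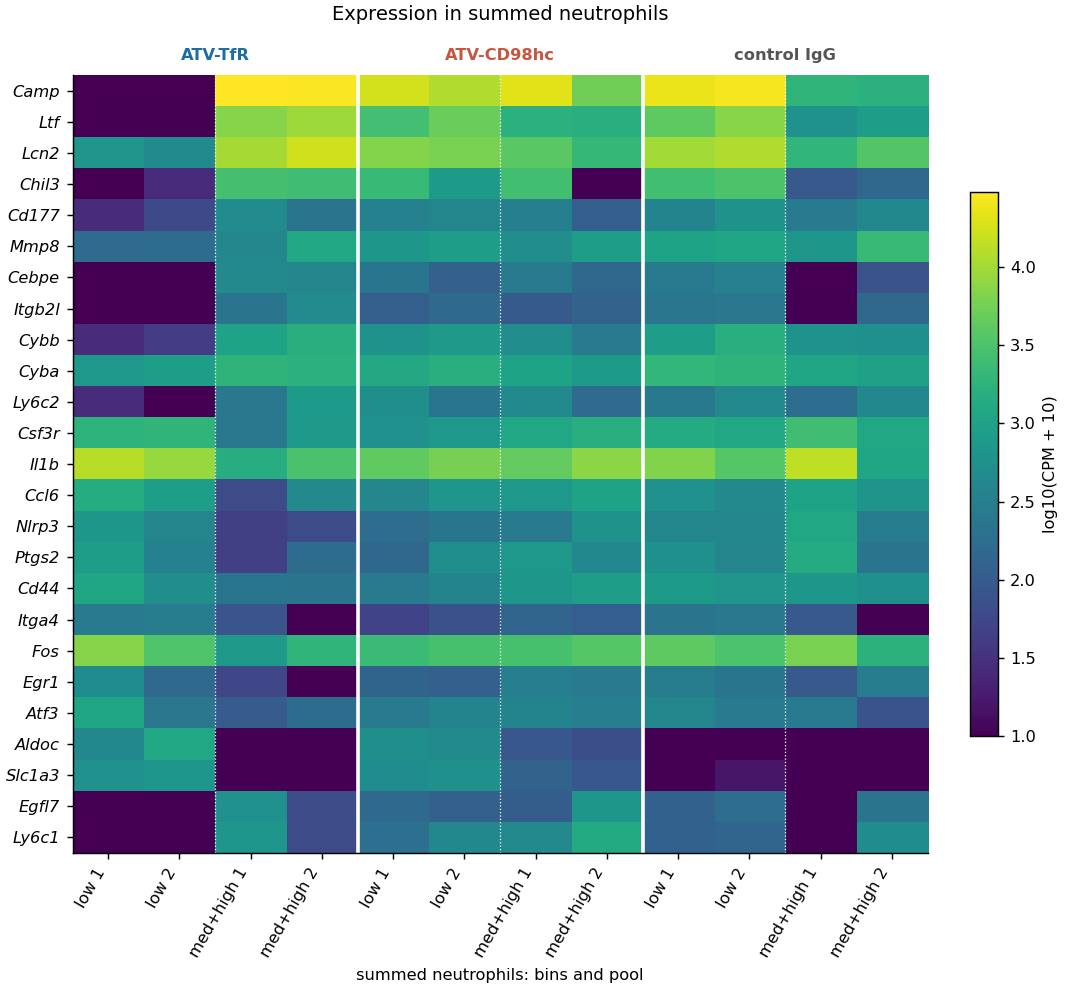
Expression of neutrophil genes in the 12 sums of neutrophils, as log10 of CPM plus 10 (colour), with 1 column per treatment, bin class and pool. Camp and Ltf are at 0 in both ATV-TfR low sums and high in its medium and high sums, in control IgG they are higher in the low sums, and Aldoc and Slc1a3, which astrocytes express, are at 0 in the ATV-TfR medium and high sums.

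The other treatments gave other values for the same contrast. In ATV-CD98hc 3 genes (0.164%) were higher and 51 (2.79%) lower in the brighter neutrophils, and 0 of the 6 specific granule genes other than Ngp were called (all 6 changes negative, median −0.655). Camp was at 17310 and 11500 CPM in the low sums and at 20790 and 5236 in the brighter ones, which overlap. The 3 higher genes were St8sia4, a polysialyltransferase gene, Arap3 and the receptor kinase gene Grk5. The lower genes were led by Dclk1, Ntsr2, Ntrk2 and Acsbg1 and included the astrocyte transcripts Clu and Aldoc, and no gene of the neutrophil lists was called. Without the neutrophils with 5 or more endothelial or astrocyte UMIs, 0 genes were called, and without ATV-CD98hc pool 1 only 1 was. In control IgG 3 genes (0.164%) were lower and none higher. They were Camp, Ltf and the rule gene Ngp. Camp was at 24300 and 27230 CPM in low and 1870 and 1654 in the brighter sums of 7 cells each (log2 −4.37 ± 0.62 SE, edgeR adjusted p = 0.012), and Ltf at 4125 and 7284 against 595 and 896 CPM (log2 −3.39, adjusted p = 0.012). Both calls are lost without control IgG pool 1 or without pool 2. There 1 low sum stands against 1 brighter sum, so the losses cannot tell whether the calls depend on a pool.

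The change over the bins was then compared between treatments in the same fit. Between ATV-TfR and ATV-CD98hc it differed at 36 genes (1.97%) towards higher and 18 (0.984%) towards lower in ATV-TfR, and between ATV-TfR and control IgG at 57 (3.11%) and 6 (0.328%). Both comparisons share the ATV-TfR sums. Of the 6 specific granule genes other than Ngp 5 were higher in each, among them Camp (edgeR adjusted p = 1.8e-05 and 1.2e-06), Ltf (7.7e-06 and 1.2e-06), Lcn2 and Chil3. Cybb and Cyba differed in both, and Nlrp3 differed in both towards lower. Csf3r and Cd44 differed towards lower from ATV-CD98hc, and Ltb4r1 towards higher from control IgG. The monocyte marker Ly6c2 differed in both towards higher (edgeR adjusted p = 0.029 and 0.035). Its difference from ATV-CD98hc lost the call in 3 of 15 alternatives, which left out either ATV-TfR pool or ATV-CD98hc pool 1 (adjusted p up to 0.159), and its difference from control IgG was not run under the alternatives. Camp, Ltf, Lcn2 and Cybb kept both calls in every alternative run. In the difference from ATV-CD98hc, Cyba lost its call in 8 of 15 alternatives, among them leaving out any 1 of the 6 pools, Cd44 and Csf3r in 5 of 15 each, Chil3 in 3 and Nlrp3 in 2. In the difference from control IgG, Nlrp3 lost it in 4 of 14, Ltb4r1 in 4 of 13, Cyba in 3 of 14 and Chil3 in 1 of 14. Of 24 named genes of the first, 18 lost their call without ATV-TfR pool 1 and 16 without ATV-CD98hc pool 1. Of 21 named genes of the second, 12 lost it without ATV-TfR pool 1, 12 without control IgG pool 1 and 15 without control IgG pool 2. Between ATV-CD98hc and control IgG 0 of 1830 genes (0%) differed, with 100 at an unadjusted p below 0.05 by edgeR and 1 called by DESeq2.

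Summed over all bins, few neutrophil genes were called between treatments. Among 3835 genes tested on the 2 pools per treatment, 264 (6.88%) were higher and 9 (0.235%) lower in ATV-TfR than in control IgG, and with ATV-CD98hc 208 (5.42%) were higher and 4 (0.104%) lower. Apart from genes of the rule, the higher genes included 3 of 3 astrocyte markers with each ATV, and 2 of 4 oligodendrocyte markers with ATV-TfR and 0 of 4 with ATV-CD98hc. Gpc5 and Pcdh9 had 0 UMIs in control IgG and were at least 147-fold and 141-fold higher in ATV-TfR and at least 128-fold and 59.9-fold higher in ATV-CD98hc. These 3 astrocyte markers summed to 1319 and 3356 CPM in pools 1 and 2 of ATV-TfR, 1722 and 1534 in ATV-CD98hc and 5.49 and 5.545 in control IgG, where each value is 1 UMI. Without the neutrophils with 5 or more endothelial or astrocyte UMIs, 42 genes were called higher and 10 lower for ATV-TfR (52 in all), and 180 were called for ATV-CD98hc. Without control IgG pool 2 the counts of called genes in both directions were 134 and 81. In low bins alone, with a minimum of 10 in place of 20 neutrophils per sum, they were 559 and 358. Without a filter on low counts they were 489 and 400.

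Of the genes in the neutrophil lists, 2 were called lower in ATV-TfR than in control IgG. Mmp8 was at 321 and 396 CPM in ATV-TfR and at 1004 and 1192 in control IgG (log2 −1.66 ± 0.31 SE, edgeR adjusted p = 0.010), a call lost without control IgG pool 2 and without the neutrophils that carry brain cell UMIs (0.064 and 0.082). Ccl4, a chemokine gene, was at 5.84 and 0 CPM against 121 and 61.0 (log2 −4.32, adjusted p = 0.049, lost in 8 of 16 alternatives). Trib1, whose protein turns over C/EBP factors, was at 152 and 136 against 340 and 388 CPM (log2 −1.36, adjusted p = 0.035), and Dgkg, Apobr, Dock5, Ccdc88c and Sgms2 were also lower. Trib1 lost its call without any 1 of the 4 pools compared. Over all 17 alternatives Ccdc88c lost it in 13, Apobr and Sgms2 in 10 each, Trib1 in 7, and Dgkg and Dock5 in 6 each. In ATV-CD98hc the lower genes were Thbs1 (thrombospondin 1; 174 and 174 against 549 and 505 CPM, adjusted p = 0.027), G0s2 (an inhibitor of lipolysis; 2085 and 2659 against 5203 and 5645 CPM, adjusted p = 0.030), the triglyceride synthesis gene Dgat1 and the septin gene Sept1. All 4 lost their calls without ATV-CD98hc pool 1 and without either control IgG pool. Camp, at 19640 and 6775 CPM in ATV-TfR, 18600 and 8233 in ATV-CD98hc and 22850 and 25170 in control IgG, was not called. Between ATV-TfR and ATV-CD98hc 0 of 3835 genes (0%) were called by edgeR and 0 by DESeq2, with 166 at an unadjusted p below 0.05 by edgeR. Without the neutrophils that carry 5 or more endothelial or astrocyte UMIs 115 were called (42 towards higher and 73 towards lower for ATV-TfR), and in low bins alone, with a minimum of 10 neutrophils per sum, 60.

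Transcripts of the antibodies' targets were lower in neutrophils than in endothelial reference cells of each treatment. Tfrc, the transferrin receptor, was at 39.7 CPM in ATV-TfR (exact 95% Poisson interval 19.03 to 73.0), 85.8 in ATV-CD98hc (58.7 to 121) and 63.4 in control IgG (40.2 to 95.2). A Tfrc UMI was found in 10.2% of neutrophils at a median depth of 2092 UMIs, against 59.6% of endothelial reference cells at 3482. In those cells Tfrc was at 211, 496.5 and 495 CPM in ATV-TfR, ATV-CD98hc and control IgG, so the reference moved with treatment and genotype, which coincide. Each ATV went to mice with a knock-in of its own target gene, and reads were counted on the mouse genome. Tfrc was lowest in the TfR knock-in and Slc3a2 in the CD98hc knock-in, both in endothelial reference cells and in neutrophils. Whether counts of a target gene can be compared across the genotypes was not tested. Over all treatments Tfrc was at 65.8 CPM in neutrophils, 15.6 in monocyte and 11.5 in microglia reference cells. The neutrophil level can include RNA of endothelial cells, in which Tfrc was at 390.5 CPM over all treatments. Of the 315 neutrophils 52 had 5 or more endothelial marker UMIs. Monocyte and microglia reference cells had to hold more UMIs of their own markers than of the endothelial ones. Neutrophils had to hold more UMIs of S100a8 and S100a9 than of the rule's genes of other cell types, Cldn5 and Flt1 included. The part of endothelial RNA was not tested. Slc3a2, the heavy chain of CD98, was at 127, 53.6 and 85.5 CPM, against 598, 256 and 476 in endothelial reference cells of the same treatments. Its light chain Slc7a5, an amino acid carrier, was at 111, 166 and 44.1 CPM, against 892, 986 and 922. Over all treatments Slc3a2 was at 84.0 CPM in neutrophils and 105 in monocyte reference cells, and Slc7a5 at 107 and 19.6. A Slc7a5 UMI was found in 11.5%, 21.9% and 5.93% of neutrophils of ATV-TfR, ATV-CD98hc and control IgG. Fewer than 5 endothelial and fewer than 5 astrocyte UMIs were in 41 of 61, 66 of 119 and 130 of 135 of these neutrophils. The part of RNA from other cells in the Slc7a5 level was not tested. Another light chain of CD98, the cystine carrier Slc7a11, was at 845, 885 and 1178 CPM in neutrophils, 418 in astrocyte reference cells and 20.3 in monocyte reference cells. None of these genes was called between treatments. Slc7a5 was called higher in the brighter ATV-TfR neutrophils (adjusted p = 0.024), but its sums overlap (234 and 0 against 17.3 and 0 CPM), and the call was lost in 3 of 14 alternatives.

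Fc receptor transcripts were present in neutrophils at various levels. Fcer1g, the signalling chain shared by activating Fc receptors, was at 1468, 1233 and 1677 CPM in ATV-TfR, ATV-CD98hc and control IgG, with a UMI in 85.4% of neutrophils against 1.11% of endothelial reference cells, and at 2379 CPM in monocyte reference cells. Fcgr3, a low-affinity activating IgG receptor, was at 234, 174 and 212 CPM, against 2.01 in endothelial and 239.5 in monocyte reference cells. Fcgr4 was at 36.45 CPM over all neutrophils and the inhibitory receptor gene Fcgr2b at 30.4, against 41.9 and 241.5 in monocyte cells. Fcgr1, the high-affinity IgG receptor gene, had 2 UMIs in all neutrophils (2.03 CPM), against 153 CPM in monocyte cells. Fcgrt, the neonatal Fc receptor gene, was at 95.2, 96.5 and 41.4 CPM, against 579 in endothelial cells. UMIs of Fcgrt were found in 6.557%, 15.97% and 4.444% of neutrophils of ATV-TfR, ATV-CD98hc and control IgG, against 83.47% of endothelial reference cells. In the same order, 41 of 61, 66 of 119 and 130 of 135 neutrophils had fewer than 5 endothelial and fewer than 5 astrocyte UMIs. The part of endothelial RNA in the Fcgrt level was not tested. Levels of different genes are not compared with each other here, and the intervals cover counting error only.

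**Figure D4:**
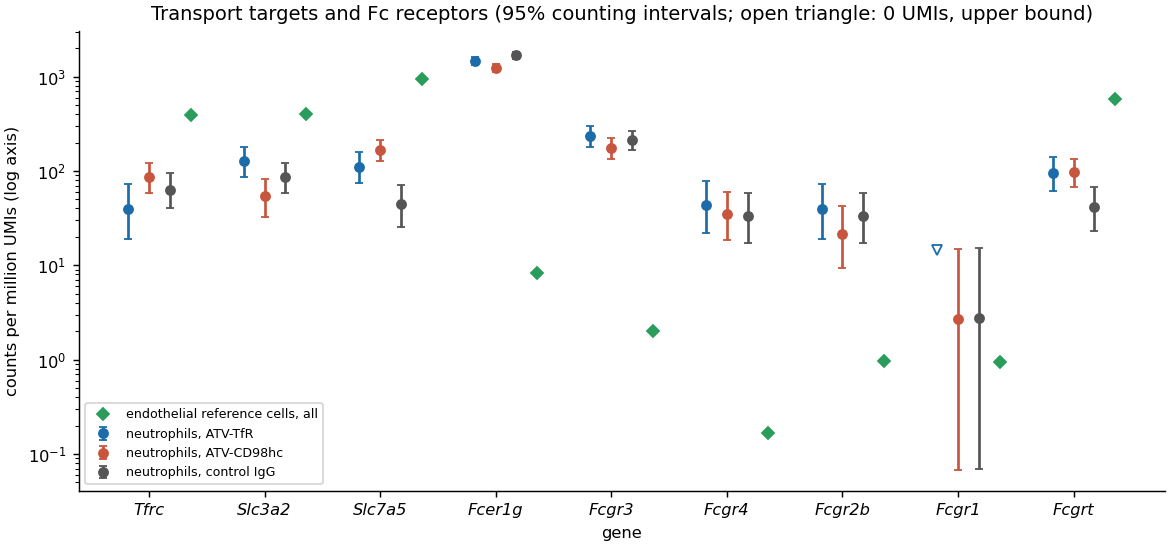
Level of the transport targets and Fc receptor genes (x axis) in neutrophils of each treatment, in CPM on a log axis, with exact 95% Poisson intervals over the summed UMIs; diamonds are endothelial reference cells of all treatments. Fcer1g and Fcgr3 are far above, and Tfrc, Slc3a2, Slc7a5 and Fcgrt below, the endothelial level in all 3 treatments.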

How the data were processed

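The deposited matrix held raw UMI counts per gene and barcode with the sample of each barcode, made by the authors with Cell Ranger 7.1.0 on mm10 (GRCm38) per the submitters' processing notes, which also name Seurat 4 and 5. Of 265025 deposited barcodes, 249715 passed the depth filter. The neutrophils and all gene lists were chosen with earlier results of these data known. Doublets were left in and removed with Scrublet (scanpy 1.11.5) as an alternative. Reference cells had at least 5 UMIs of their markers. Animals were told apart by sex-linked transcripts, which gave 69.7% of kept barcodes a call.

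Shares were tested with exact permutation tests over libraries or animals, two-sided, with Benjamini-Hochberg adjustment. Intervals are exact (95%, scipy 1.17.1). For expression, counts were summed per pool, over all bins (at least 20 neutrophils) or over low and over medium and high bins (at least 3), and tested with edgeR 4.0.16 (quasi-likelihood, TMM factors, filterByExpr). Sums are given as CPM, counts scaled to the sum's total. All groups entered one fit. DESeq2 1.42.0 was an alternative. Named genes were the 10 with the largest change in each direction among those called with groups that do not overlap, rule genes left out. Where the change over bins was compared between treatments, overlap was not checked. Called genes of the lists were added, and the target and Fc receptor genes whatever their values. The 20 genes with the highest ratio over other barcodes were also named. Scripts were tested on simulated data. Negative libraries held 1 neutrophil, so the planned expression contrast of positive against negative bins was not made, and that of medium and high against low bins took its place. The low and brighter sums of a pool come from the same animals, so the pool was also fitted as a block. One named gene is not reported here.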

Additional observations from a re-analysis of the deposited data

Results flagged for a closer look

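The male of control IgG pool 1 stood apart from the other 3 control IgG animals, with a mean log2 percent of neutrophils of 0.106 over the positive bins (ratio of gap to range 0.902, critical value 0.829; chance alone picks about 1 in 20 such groups).

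The change from low to brighter bins differed between ATV-TfR and ATV-CD98hc neutrophils at 54 genes by the edgeR test of the difference. The adjusted p was 7.71e-06 for Ltf, 1.83e-05 for Camp, 0.000117 for Lcn2, 0.000239 for Cybb, 0.00973 for Itgb2l and 0.02 for Cd177. It was 0.0215 for Nlrp3, 0.03 for Cd44, 0.0301 for Cyba, 0.0345 for Chil3 and 0.0419 for Csf3r. Nlrp3, Cd44 and Csf3r differed towards lower in ATV-TfR and the others towards higher. Cyba lost its call in 8 of 15 alternatives, Cd44 and Csf3r in 5 each, Chil3 in 3, Nlrp3 in 2 and Cd177 in 1, and Itgb2l in 1 of 14, while Ltf, Camp, Lcn2 and Cybb lost it in 0.

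Between ATV-TfR and control IgG that change differed at 63 genes by the same test. The adjusted p was 1.24e-06 for Ltf and for Camp, 2.33e-05 for Lcn2, 0.000123 for Cybb, 0.004 for Itgb2l and 0.00482 for Chil3. It was 0.0108 for Cyba, 0.0229 for Cd177, 0.0282 for Ltb4r1 and 0.0437 for Nlrp3, the last towards lower in ATV-TfR. Nlrp3 lost its call in 4 of 14 alternatives, Cyba and Cd177 in 3, Chil3 in 1, Ltb4r1 in 4 of 13 and Itgb2l in 0 of 13, while Ltf, Camp, Lcn2 and Cybb lost it in 0 of 14.

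Outside the depth filter, 9 further barcodes met the neutrophil rule. The ATV-TfR high bin held 1, the ATV-CD98hc low and medium bins 1 and 3, and the control IgG low bin 4.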

How the results depend on the processing

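The settings were changed one at a time, except that the fit of low bins alone also took a minimum of 10 in place of 20 neutrophils per sum. Of the named genes, 1046 values kept their call and 120 lost it under settings that kept all pools, and with 1 pool left out 564 kept it, 227 lost it and 1 turned: Cstdc4 in the difference between ATV-TfR and control IgG, at 1.10 without control IgG pool 2 (−9.99 to 1.10 over the pools). Sums of 4 to 7 neutrophils limit the brighter bins, and 120 sexed neutrophils limit the animals.

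The uncalled trend over bins turned negative in ATV-CD98hc after Scrublet (−0.109), at 5% mitochondrial UMIs (−0.0254), without neutrophils carrying brain cell UMIs (−0.274) and in male (−0.178) and female cells (−0.152), in ATV-TfR in female cells (−0.383), and in control IgG per Ptprc barcode (−0.438) and on the arcsine square root of the share (−0.0206), where the difference of positive from negative bins, at 0.0418, was no longer called. With 1 pool left out it ran from −0.108 to 0.263 in ATV-TfR, −0.186 to 0.274 in ATV-CD98hc and −1.75 to 0.806 in control IgG. Per Ptprc barcode the treatment differences were 0.528, −0.334 and 0.862 (ATV-TfR minus ATV-CD98hc), and the low-bin difference 1.045. In male cells the 4 bin contrasts were 1.76, 0.951, 1.355 and 1.12, and in female cells the positive-bin ones 1.42 and 0.899. With 1 pool left out they ran from 1.53 to 2.81, 1.23 to 1.96, 1.99 to 2.45 and 1.52 to 2.29, and the treatment differences from −4.41 to −3.54, −3.65 to −2.68 and −1.29 to −0.325.

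Counts of called genes follow in the order ATV-TfR, ATV-CD98hc and ATV-TfR against ATV-CD98hc between treatments, then bins in ATV-TfR, ATV-CD98hc and control IgG, then the differences ATV-TfR minus ATV-CD98hc, ATV-TfR minus control IgG and ATV-CD98hc minus control IgG. Without a filter they were 489, 400 and 24 between treatments, 15 in control IgG bins, and 90, 198 and 11 for the differences. At 20 UMIs they were 504, 86 and 6 over bins and 84, 150 and 2. DESeq2 gave 33 in ATV-CD98hc bins and 128 and 1 for the last differences. At 10 neutrophils a sum, ATV-CD98hc bins gave 98 and the first difference 113. Without neutrophils carrying brain cell UMIs they were 52 and 115 for ATV-TfR against control IgG and ATV-CD98hc, 120 and 0 over bins in the ATVs, and 1 for the last difference. Low bins alone, with a minimum of 10 in place of 20 neutrophils per sum, gave 559, 358 and 60. With 1 pool left out they ran from 134 to 362, 81 to 355, 0 to 19, 35 to 454, 1 to 80, 0 to 7, 16 to 79, 15 to 191 and 0 to 2. The causes were not tested. RLE factors moved the median of all genes by −0.14 and 0.22 in ATV-TfR and control IgG bins and by −0.36 and −0.30 in the differences from control IgG.

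With the replicate block (the pool), control IgG bins had 5 called genes and the differences 86, 96 and 1, and the trends were 0.0776, 0.0439 and 0.0761. Deviations of the low and brighter sums of pool 1 correlated at −0.14, 0.20 and 0.10 in ATV-TfR, ATV-CD98hc and control IgG. Between treatments the samples share only a number (−0.03, −0.20 and 0.10). The planned contrasts of positive, or high, against negative bins were not run, since the negative libraries held 1 neutrophil.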

Other observations

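Azurophil granule transcripts (Mpo, Elane, Prtn3, Ctsg, Prss57 and Ms4a3), which promyelocytes make, were found in 19 of 315 neutrophils, and 313 had no UMI of Mpo, the myeloperoxidase gene. Of the 571 azurophil UMIs, 374 (65.5%) were in 1 cell of the ATV-CD98hc medium bin, pool 1, with 45 UMIs of Mpo, 154 of the elastase gene Elane and 153 of the proteinase gene Prtn3 beside 843 of Camp and Ltf. The next 2 cells had 82 and 51 azurophil UMIs and 0 of Camp and Ltf. They had only 27 and 11 UMIs of S100a8 and S100a9 among 11824 and 9043 UMIs, near the minimum of 10 by which neutrophils were chosen. Both came from the low bin of the same pool, as did cells with 18 and 16, and the sixth, with 7, came from its medium bin. All 6 cells with 7 or more were thus from ATV-CD98hc pool 1.

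In the low bin of that pool 19 of 57 neutrophils had 1 to 9 UMIs of Camp and Ltf, against 0 of 11 in the low bin of the other ATV-CD98hc pool, 0 of 39 in ATV-TfR low and 4 of 121 in control IgG low.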
